A study of Oryza sativa with 35 samples.

Results

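The comparison described here is that of 9311, a chilling-sensitive indica rice line, after 24 h of recovery from chilling with the same line before chilling. It rests on 6 of the 35 libraries of the series, 3 taken at 96 h and 3 taken at 0 h, and was chosen by the sample labels alone. Seedlings of 9311 and of DC90, a near-isogenic, chilling-tolerant line that carries a locus of wild rice in the 9311 background, were grown for 30 days, chilled at 10°C by day and 8°C by night for 72 h, and then returned to normal growth. Whole plants were sampled for RNA-Seq at 0, 12, 24, 72, 84 and 96 h, with 3 biological replicates a group, of which 2 libraries of 9311 at 84 h are used here. The 0 h group is untreated 9311, and the 96 h group is 9311 after 72 h of chilling plus 24 h of recovery. Both were sampled at the same time of day, and neither carries a transgene or received any other agent. The 96 h plants were 4 days older, and no unchilled plants of that age were analysed here, so a remaining effect of chilling and a change with age cannot be told apart. In whole plants, a change in the number of cells of a type and a change in RNA per cell cannot be told apart either.

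When rice is chilled, photosynthesis is curtailed, calcium and MAP kinase signals are raised, and the DREB1 factors, which bind a promoter element of cold-response genes, are part of the transcriptional response. Abscisic acid (ABA) closes stomata, and its level is set by 9-cis-epoxycarotenoid dioxygenases (NCED), which make its precursor, and by ABA 8'-hydroxylases, which break it down. On return to warmth, most chilling-responsive transcripts usually move back towards their former level. The comparison of 96 h with 0 h asks which loci differed from their 0 h level, whether or not they had changed in chilling.

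The 6 libraries held between 36817765 and 63722796 counted reads, and 96 h replicate 2 was the deepest. Levels are given as CPM, read counts scaled by TMM to a common library size, which are compared only within a locus because they are not divided by its length. Across loci, log2 CPM correlated at 0.946 to 0.951 between the 0 h libraries, 0.920 to 0.938 between the 96 h libraries, and 0.897 to 0.921 between a 0 h and a 96 h library. Of 18 leaf marker loci, 17 passed the filter on low values and 1 had no reads in any of the 6 libraries. The summed level of 13 light-harvesting chlorophyll proteins was 35640.5, 38415 and 46482 CPM at 0 h and 32666, 56119 and 68394 CPM at 96 h. The summed level of 4 Rubisco small subunit and activase loci was 20401, 17758 and 28197 CPM at 0 h and 8438, 19757 and 14231 CPM at 96 h, so that 96 h replicate 1 was the lowest library for both leaf lists. Of 6 root marker loci (Lsi1, Lsi2, 2 NRT2 nitrate transporters, NAR2.1 and IRT1), 5 passed the filter, and their summed level was 178, 189.5 and 274 CPM at 0 h and 255, 95.8 and 324 CPM at 96 h. The shoot meristem marker OSH1 (LOC_Os03g51690) was at 14.4, 16.8 and 18.9 CPM at 0 h and at 13.0, 24.7 and 9.92 CPM at 96 h. Leaf, root and meristem markers were thus present in each library, and the ranges of the groups overlapped for each list. The part of library composition in the results below was not tested.

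Few loci were called different between 0 h and 96 h, and most of those called were lower at 96 h. A locus that was not called is not thereby shown to be unchanged. Of 22961 loci tested with edgeR's quasi-likelihood test, 54 were differentially expressed genes (DEGs), which means here a log2 fold change of 2 or more in either direction together with an adjusted p (Benjamini-Hochberg) no higher than 0.001. Of these, 9 rose (0.0392% of the loci tested) and 45 fell (0.196%). At an adjusted p of at most 0.05 with no fold threshold, called here passing the test, 223 loci rose (0.971%) and 381 fell (1.66%), and 3144 had an unadjusted p under 0.05. The median log2 fold change of all loci was -0.02. By the same rule, 5479 loci rose (23.9%) and 5719 fell (24.9%) between 0 h and 72 h of chilling, a comparison that shares the 0 h libraries. Between 72 h and 96 h, 6056 rose (26.4%) and 6197 fell (27%). At all 54 DEGs the 3 values at 96 h lay outside the range of the 3 values at 0 h, as they did at 26.7% of all loci tested.

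The number of DEGs rested on each of the libraries and on which groups shared the estimate of spread. Without 0 h replicate 1, 2 or 3 it was 25, 27 and 16, and without 96 h replicate 1, 2 or 3 it was 11, 4 and 6. Its split also moved: without 96 h replicate 1, 9 rose and 2 fell, without 96 h replicate 2, 3 rose and 1 fell, and without each other library more fell than rose. It was 1 in a fit of only the 6 libraries, 1 in a fit of the 17 libraries of 9311, and 217 with DESeq2 (70 up and 147 down). The count of loci that passed the test was 320, 309 and 246 without each 0 h library in turn and 327, 281 and 261 without each 96 h library, with 175 up and 152 down without 96 h replicate 1. The direction of all 54 DEGs was the same under each of the 15 alternatives to the model, and all 54 had an adjusted p of at most 0.05 under 13 of them. In the fit of the 6 libraries and in limma on log2(FPKM + 1), 53 of the 54 did.

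**Figure D1:**
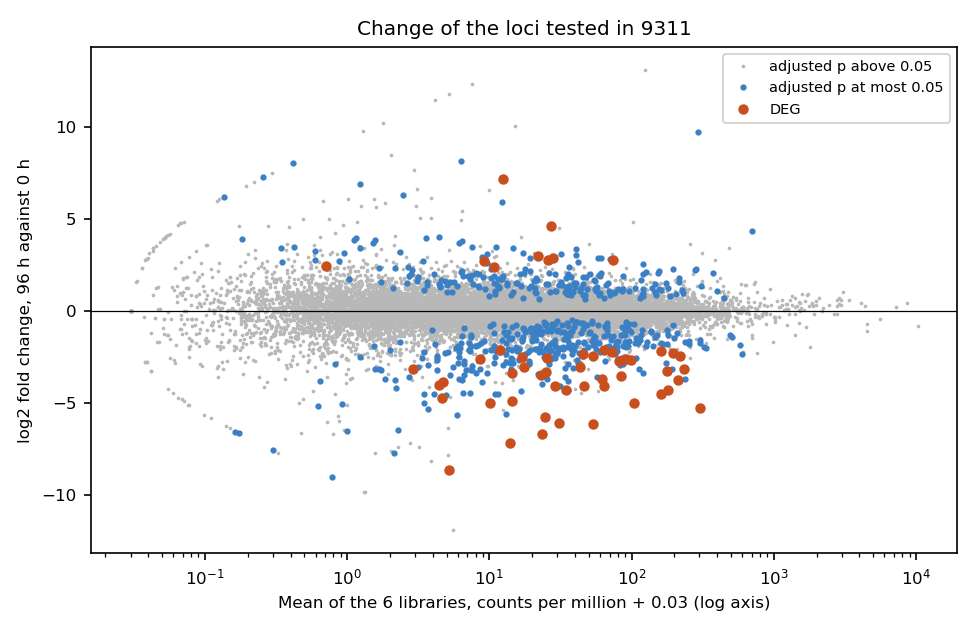
Log2 fold change of 22961 loci between 0 h and 96 h in 9311 (vertical axis) against the mean of the 6 libraries in CPM plus 0.03 (horizontal log axis). Orange points are the 54 DEGs, blue points the other loci with an adjusted p of at most 0.05, and grey points the rest; 45 of the 54 DEGs lie below 0.

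Of the tested genes of cytokinin response and breakdown, 4 of 10 type-A response regulators and 3 of 7 cytokinin dehydrogenases fell, and 1 dehydrogenase rose. ORR6 (LOC_Os04g57720), a type-A response regulator, which is induced by cytokinin and dampens its signal, had the smallest adjusted p of all loci. It was at 102, 76.2 and 94.5 CPM at 0 h and 16.5, 15 and 19.1 CPM at 96 h (log2 fold change -2.43 ± 0.22 (SE), adjusted p = 5.91e-07). The lowest 0 h library was 3.99 times as high as the highest 96 h library. ORR9 (LOC_Os11g04720) was at 182, 133 and 149 CPM at 0 h and 8.79, 16.6 and 15 CPM at 96 h (log2 fold change -3.52 ± 0.49 (SE), adjusted p = 0.000171). The groups were far apart here as well. ORR10 (LOC_Os12g04500) fell by 2.69 and ORR4 (LOC_Os01g72330) by 1.71 on the log2 scale. The 4 that fell, and 0 that rose, compare with 1.66% of all loci that fell, and the list had a median log2 fold change of -1.18. All 4 passed the test whichever library was left out. Cytokinin dehydrogenases degrade cytokinin. Cytokinin dehydrogenase 4 (LOC_Os01g71310) was at 63.4, 102 and 67.8 CPM at 0 h and 6.17, 13.2 and 8.87 CPM at 96 h (log2 fold change -3.04 ± 0.46 (SE), adjusted p = 0.000355). Its 0 h values lay above all of its 96 h values. Cytokinin dehydrogenase 11 (LOC_Os08g35860) was the member that rose, at 88.9, 65.7 and 65.9 CPM at 0 h and 106, 230.3 and 168 CPM at 96 h (log2 fold change 1.19 ± 0.28 (SE), adjusted p = 0.0169). Without 96 h replicate 1, 1 cytokinin dehydrogenase fell, and without each other library 2 did. The rise was called without 0 h replicate 1 and without 96 h replicate 1 and lost without any other library. Both lists were chosen after the values of their members had been seen.

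In the list of ABA synthesis and breakdown, some genes on both sides were lower at 96 h and none rose, but a dioxygenase outside the list did. Of its 8 loci, all tested, 5 fell, against 1.66% of all loci, with a median log2 fold change of -2.41. ABA 8'-hydroxylase 1 (LOC_Os02g47470), a cytochrome P450 that inactivates ABA, was at 385, 289 and 361 CPM at 0 h and 15.6, 18.1 and 18.8 CPM at 96 h (log2 fold change -4.30 ± 0.55 (SE), adjusted p = 7.95e-05). The gap between the groups was again wide, with the lowest 0 h library 15.4 times as high as the highest 96 h library. ABA 8'-hydroxylase 3 (LOC_Os09g28390) was at 7.85, 12 and 11.6 CPM at 0 h and 1.27, 1.71 and 1.45 CPM at 96 h (log2 fold change -2.82 ± 0.52 (SE), adjusted p = 0.0026). ABA 8'-hydroxylase 2 (LOC_Os08g36860) did not pass the test, with 13.1, 11.5 and 14.6 CPM at 0 h and 13, 15.4 and 14.6 CPM at 96 h, and its groups overlapped. On the synthesis side, NCED3 (LOC_Os03g44380) was at 10.2, 21.6 and 12.4 CPM at 0 h and 1.73, 2.96 and 2.62 CPM at 96 h (log2 fold change -2.60 ± 0.42 (SE), adjusted p = 0.000736). NCED4 (LOC_Os07g05940) was at 1.86, 13.8 and 5.97 CPM at 0 h and 0.0403, 0.111 and 0.39 CPM at 96 h, and its highest 0 h library was 7.42 times its lowest (log2 fold change -5.30 ± 1.08 (SE), adjusted p = 0.0068). NCED5 (LOC_Os12g42280) was at 9.05, 9.89 and 11.3 CPM at 0 h and 1.51, 2.49 and 2.41 CPM at 96 h (log2 fold change -2.23 ± 0.51 (SE), adjusted p = 0.0149). Zeaxanthin epoxidase (LOC_Os04g37619), which acts upstream of the dioxygenases, had a log2 fold change of -0.05 and did not pass the test. Leaving out a library kept 3 to 5 of the 5 calls, with 3 without 96 h replicate 2. NCED4 lost its call without 96 h replicate 2 (adjusted p = 0.0726). NCED5 lost it without 0 h replicate 3 or without any 1 of the 96 h libraries, and its adjusted p ranged from 0.000734 to 0.0997 over the alternatives. A further dioxygenase outside the list, NCED1 (LOC_Os02g47510), named after its value was seen, rose, from 98.2, 87.5 and 104 CPM at 0 h to 284, 747 and 354 CPM at 96 h (log2 fold change 2.26 ± 0.46 (SE), adjusted p = 0.00704). Its rise did not pass the test without 96 h replicate 2, which was the highest library. Of 5 tested 9-cis-epoxycarotenoid dioxygenases, a list chosen after values were seen, 3 fell and 1 rose, against 1.66% and 0.971% of all loci.

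Of 8 loci in the list of DREB1 factors, 6 passed the filter on low values, and 4 of these 6 fell and 0 rose, against 1.66% of all loci that fell, with a median log2 fold change of -4.53. DREB1G (LOC_Os02g45450) was at 27.1, 63.1 and 49.3 CPM at 0 h and 0.282, 0.57 and 0.519 CPM at 96 h (log2 fold change -6.65 ± 1.10 (SE), adjusted p = 0.000824). Its lowest 0 h library was 47.5 times as high as its highest 96 h library. DREB1E (LOC_Os04g48350) was at 5.12, 8.19 and 6.75 CPM at 0 h and 0.121, 0.206 and 0.297 CPM at 96 h (log2 fold change -4.98 ± 1.16 (SE), adjusted p = 0.0171). DREB1C (LOC_Os06g03670) was at 3.84, 14.6 and 9.99 CPM at 0 h and 0.242, 0.317 and 0.631 CPM at 96 h (log2 fold change -4.57 ± 1.00 (SE), adjusted p = 0.0114). DREB1B (LOC_Os09g35010) was at 28.3, 15.3 and 22.5 CPM at 0 h and 0.222, 0.617 and 2.1 CPM at 96 h (log2 fold change -4.49 ± 1.16 (SE), adjusted p = 0.0337). All 4 thus had separate groups, with 96 h values of at most 2.1 CPM. DREB1A (LOC_Os09g35030), at 21.4, 11.8 and 13 CPM at 0 h and 3.85, 5.86 and 16.4 CPM at 96 h, did not pass the test, and its 96 h replicate 3 lay within the range of the 0 h libraries. DREB1H (LOC_Os09g35020) was at 0.459, 0.933 and 0.586 CPM at 0 h and 0, 0.0475 and 0.26 CPM at 96 h and did not pass either, with an adjusted p of 0.289. DREB1B, DREB1H and DREB1A are neighbours of similar sequence, so the split of reads between them is uncertain. The number called was 3 without any 1 of the 0 h libraries, 1 without 96 h replicate 1 or 2, and 2 without 96 h replicate 3. DREB1G was called in each of these fits, and DREB1B in none of them (its adjusted p was up to 0.14).

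In the jasmonate pathway, 5 of 12 tested JAZ repressors and 3 of 24 tested loci of jasmonate synthesis fell, against 1.66% of all loci, and 0 rose in either list. JAZ repressors, TIFY-domain proteins that bind and block jasmonate-responsive factors and are themselves induced by jasmonate, had 12 tested members, which all had a log2 fold change below 0, whether or not they passed the test (median -1.32). TIFY 11e (LOC_Os10g25230) was at 37.2, 52.6 and 54.3 CPM at 0 h and 0.242, 0.491 and 1.93 CPM at 96 h (log2 fold change -5.75 ± 0.91 (SE), adjusted p = 0.000531). TIFY 11a (LOC_Os03g08310) was at 4.73, 12.2 and 9.88 CPM at 0 h and 0.383, 0.095 and 0.538 CPM at 96 h (log2 fold change -4.72 ± 0.79 (SE), adjusted p = 0.000925). TIFY 11d (LOC_Os10g25290) was at 64.6, 103 and 92.4 CPM at 0 h and 4.03, 3.34 and 8.37 CPM at 96 h (log2 fold change -4.05 ± 0.59 (SE), adjusted p = 0.000254). At none of these 3 did the groups overlap. TIFY 10a (LOC_Os03g28940) was at 144, 228 and 173 CPM at 0 h and 23.9, 35.2 and 35.7 CPM at 96 h (log2 fold change -2.52 ± 0.45 (SE), adjusted p = 0.00202). Leaving out a library kept 4 or 5 of the 5, with 4 without 96 h replicate 1. CYP94C1 (LOC_Os11g05380), a cytochrome P450 that in Arabidopsis oxidises jasmonoyl-isoleucine, fell from 53.1, 148 and 115 CPM to 1.17, 1.36 and 2.04 CPM (log2 fold change -6.11 ± 0.85 (SE), adjusted p = 0.000171). The list of jasmonate synthesis was chosen after values were seen, and its median was -0.30. Allene oxide synthase 1 (LOC_Os03g55800), which commits a lipid hydroperoxide to that pathway, was at 66.6, 105 and 78.3 CPM at 0 h and 26.8, 24.2 and 28.2 CPM at 96 h (log2 fold change -1.66 ± 0.31 (SE), adjusted p = 0.00292). Its call was kept under all 15 alternatives. Lipoxygenase 7 (LOC_Os08g39840) was at 95.4, 5.15 and 102 CPM at 0 h and 2.74, 4.24 and 3.56 CPM at 96 h, with 0 h replicate 2 near the 96 h libraries (log2 fold change -4.26 ± 1.13 (SE), adjusted p = 0.0385). It lost its call without 0 h replicate 1 or 3 or any 1 of the 96 h libraries.

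**Figure D2:**
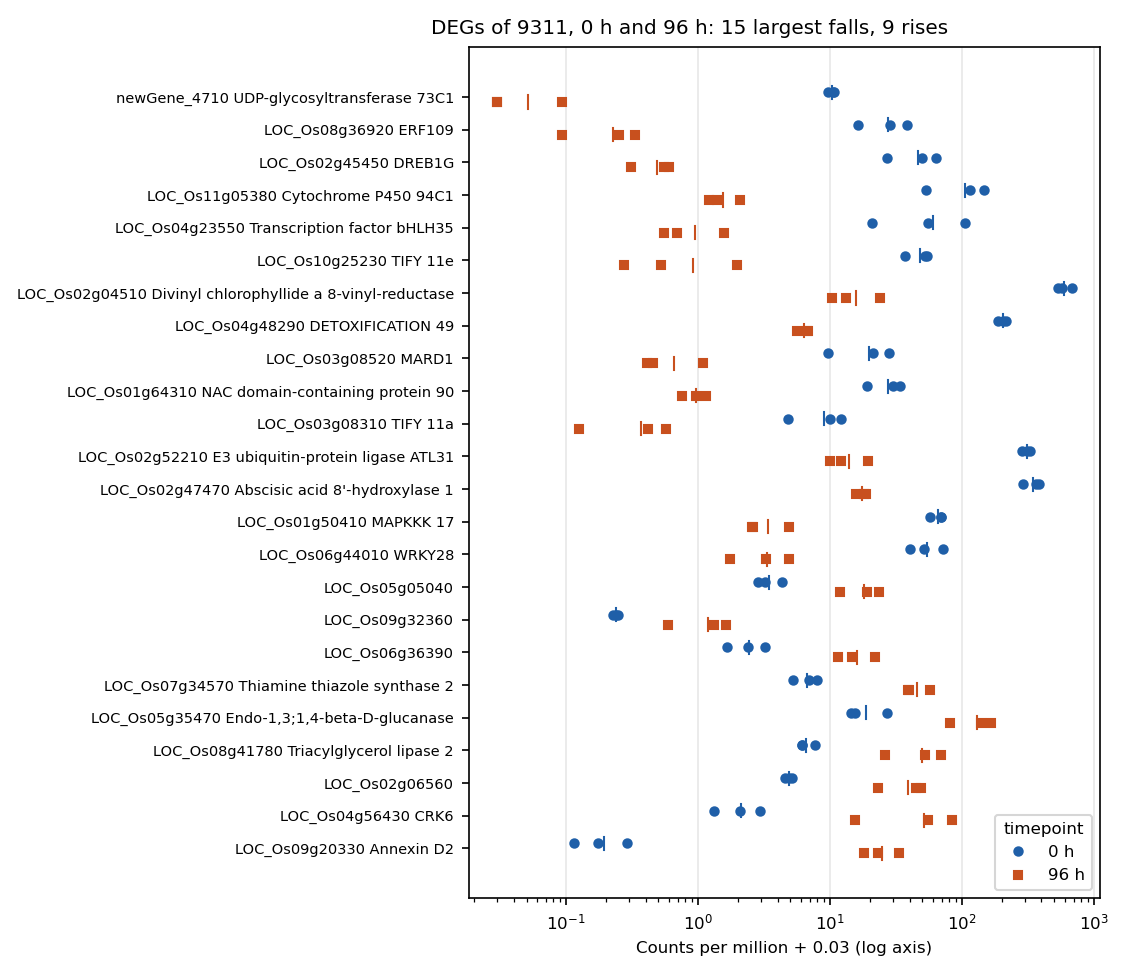
Level of the 15 DEGs with the largest fall and the 9 DEGs that rose, in CPM plus 0.03 (log axis), in each library of 9311 at 0 h (blue circles) and 96 h (orange squares), with vertical ticks at the group means. At every locus shown the 3 libraries of 1 group lie on the same side of the 3 of the other.

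WRKY factors bind W-boxes and act mainly in defence. Of 87 tested, 11 fell and 0 rose, against 1.66% of all loci that fell, and the median log2 fold change of the list was -0.26. WRKY28 (LOC_Os06g44010) was at 51.4, 40.2 and 72.1 CPM at 0 h and 1.71, 3.21 and 4.88 CPM at 96 h (log2 fold change -4.06 ± 0.53 (SE), adjusted p = 7.95e-05). WRKY71 (LOC_Os02g08440) was at 354, 384 and 446 CPM at 0 h and 17.7, 28.7 and 42.2 CPM at 96 h (log2 fold change -3.74 ± 0.54 (SE), adjusted p = 0.000235). WRKY24 (LOC_Os01g61080) was at 113, 86.6 and 117 CPM at 0 h and 4.54, 8.37 and 13.7 CPM at 96 h (log2 fold change -3.57 ± 0.64 (SE), adjusted p = 0.00202). The lowest 0 h library was 8.24, 8.39 and 6.31 times as high as the highest 96 h library at these 3 loci. The number of WRKY calls was 5, 7 and 5 without each 0 h library in turn, 3, 4 and 7 without each 96 h library, and 4 in the fit of the 17 libraries of 9311, and 0 members rose in any of these fits.

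Outside the WRKY family, ERF109 (LOC_Os08g36920), an ethylene-responsive factor, was at 16.3, 37.9 and 28.3 CPM at 0 h and 0.302, 0.0633 and 0.223 CPM at 96 h (log2 fold change -7.14 ± 1.14 (SE), adjusted p = 0.00061). The basic helix-loop-helix factor bHLH35 (LOC_Os04g23550) was at 20.7, 106 and 55.4 CPM at 0 h and 0.524, 0.665 and 1.54 CPM at 96 h (log2 fold change -6.05 ± 0.88 (SE), adjusted p = 0.000254). NAC90 (LOC_Os01g64310) was at 19.2, 30 and 33.8 CPM at 0 h and 0.726, 1.12 and 0.928 CPM at 96 h (log2 fold change -4.89 ± 0.68 (SE), adjusted p = 0.000171). All 3 were at no more than 1.54 CPM at 96 h. Of 92 tested loci annotated as ethylene-responsive transcription factors, 10 fell and 1 rose, and of 65 NAC factors 9 fell and 0 rose, against 1.66% of all loci that fell. Their medians were -0.10 and 0.05, and by these counts most members of both families did not pass the test. When 1 library was left out, 7 to 9 of the ethylene-responsive factors fell, and the NAC factors that fell numbered 6, 5 and 4 without each 0 h library in turn and 3, 3 and 5 without each 96 h library. NAC2 (LOC_Os03g60080) was at 477, 305 and 485 CPM at 0 h and 33, 40.5 and 68.3 CPM at 96 h (log2 fold change -3.16 ± 0.49 (SE), adjusted p = 0.000528). Ethylene-responsive factor 4 (LOC_Os01g58420), a repressor of the family in Arabidopsis, was at 105, 105 and 101 CPM at 0 h and 18.9, 18.5 and 34.4 CPM at 96 h (log2 fold change -2.12 ± 0.26 (SE), adjusted p = 7.95e-05). Its 0 h libraries lay very close together. BHLH148 (LOC_Os03g53020) was at 109, 103 and 132 CPM at 0 h and 5.61, 9.85 and 11.1 CPM at 96 h (log2 fold change -3.70 ± 0.60 (SE), adjusted p = 0.00076). SPATULA (LOC_Os06g06900), a basic helix-loop-helix factor that restrains organ growth in Arabidopsis, was at 49.5, 35.7 and 51.8 CPM at 0 h and 4.13, 5.19 and 4.77 CPM at 96 h (log2 fold change -3.28 ± 0.41 (SE), adjusted p = 7.95e-05). Among the other DEGs of this kind, HEC1 (LOC_Os09g28210) fell by 3.15 and ethylene-responsive factor 9 (LOC_Os05g41780) by 2.14 on the log2 scale, each with separate groups. The ethylene-responsive and NAC lists were chosen after values had been seen.

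Some protein kinases and calcium-binding proteins relay stress signals. Loci annotated as MAP kinase kinase kinases 17 and 18, which act in ABA signalling in Arabidopsis, had 7 tested members, and 5 fell and 0 rose, against 1.66% of all loci that fell (median -2.72). LOC_Os01g50410 was at 57, 69.6 and 69.7 CPM at 0 h and 2.54, 2.58 and 4.88 CPM at 96 h (log2 fold change -4.29 ± 0.59 (SE), adjusted p = 0.000171). LOC_Os03g18170 was at 153, 106 and 169 CPM at 0 h and 14.9, 24 and 25.7 CPM at 96 h (log2 fold change -2.72 ± 0.44 (SE), adjusted p = 0.000618). The other 3 that fell, LOC_Os01g50370, LOC_Os01g50400 and LOC_Os01g50420, are numbered close to the first and share its annotation, so reads may be divided among them. The number called was 3 without 96 h replicate 1 or 2 and 5 without any other library. Of 69 tested calcium-dependent protein kinases and calmodulin-like proteins, 7 fell and 0 rose, against the same 1.66% (median -0.18). Calcium-dependent protein kinase 4 (LOC_Os02g03410) was at 162, 142 and 205 CPM at 0 h and 22.3, 23.8 and 35.4 CPM at 96 h (log2 fold change -2.65 ± 0.37 (SE), adjusted p = 0.000171). CML10 (LOC_Os01g72100), a calmodulin-like protein, was at 369, 321 and 412 CPM at 0 h and 69.9, 66.9 and 69.9 CPM at 96 h (log2 fold change -2.41 ± 0.38 (SE), adjusted p = 0.000531). Its 96 h values lay close together. The calcium-binding protein KIC (LOC_Os06g46950), which in Arabidopsis binds a kinesin of trichomes, was at 129.6, 96.6 and 136 CPM at 0 h and 5.2, 5.32 and 11.5 CPM at 96 h (log2 fold change -4.04 ± 0.61 (SE), adjusted p = 0.000355). It is a DEG outside the list. Leaving out a library gave 4 or 5 falls in this list, with 4 without 96 h replicate 1 or 2. Both lists were chosen after values had been seen.

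Among other loci with large falls, the one annotated as UDP-glycosyltransferase 73C1 (newGene_4710), added to the annotation by the authors, was at 10.7, 10.6 and 9.63 CPM at 0 h and 0, 0.0633 and 0 CPM at 96 h (log2 fold change -8.61 ± 1.11 (SE), adjusted p = 7.95e-05). DETOXIFICATION 49 (LOC_Os04g48290), a MATE-type transporter, was at 205, 188 and 216 CPM at 0 h and 6.63, 6.79 and 5.57 CPM at 96 h (log2 fold change -5.00 ± 0.69 (SE), adjusted p = 0.000171). ATL31 (LOC_Os02g52210), a RING-type ubiquitin ligase, was at 284, 313 and 329 CPM at 0 h and 10, 12.1 and 19.3 CPM at 96 h (log2 fold change -4.49 ± 0.72 (SE), adjusted p = 0.000636). Within each group, the values of these loci lay close together, and the groups were far apart. MARD1 (LOC_Os03g08520) fell from 9.66, 28 and 21.3 CPM to 0.423, 0.38 and 1.06 CPM (log2 fold change -4.98 ± 0.79 (SE), adjusted p = 0.000531). Gibberellin 2-beta-dioxygenase (LOC_Os05g43880), which inactivates gibberellins, was at 8.81, 6.25 and 9.68 CPM at 0 h and 0.625, 0.237 and 0.705 CPM at 96 h (log2 fold change -3.98 ± 0.58 (SE), adjusted p = 0.000264). Its highest 96 h library was far below its lowest 0 h library. Non-symbiotic hemoglobin 2 (LOC_Os03g12510), which binds oxygen and nitric oxide, was at 11, 37.2 and 30.2 CPM at 0 h and 2.36, 2.31 and 3.14 CPM at 96 h (log2 fold change -3.33 ± 0.56 (SE), adjusted p = 0.0009). Trehalose-phosphate phosphatase 1 (LOC_Os02g44230), the last enzyme of trehalose synthesis, was at 24.2, 38.8 and 23.5 CPM at 0 h and 6.84, 4.5 and 3.97 CPM at 96 h (log2 fold change -2.50 ± 0.36 (SE), adjusted p = 0.000254). The riboflavin synthesis protein RIBA 2 (LOC_Os02g36340) was at 126, 99.6 and 133 CPM at 0 h and 20.8, 28.2 and 28.5 CPM at 96 h (log2 fold change -2.21 ± 0.35 (SE), adjusted p = 0.00059). At these 3 loci, too, no 96 h library reached the range of 0 h.

 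A heme-binding-like chloroplast protein (LOC_Os01g63210) was at 339, 237 and 384 CPM at 0 h and 21.6, 39.5 and 41.1 CPM at 96 h (log2 fold change -3.23 ± 0.46 (SE), adjusted p = 0.000198). The remaining DEGs fell by 2.09 to 3.82 on the log2 scale. They are 2 U-box proteins, LOC_Os09g21120 and LOC_Os01g72000, the regulator of nonsense transcripts homologue LOC_Os02g47560, and LOC_Os01g61990, annotated as NPR4. The others are CONSTANS-LIKE 5 (LOC_Os08g15050), REVEILLE 1 (LOC_Os02g46030), and 2 loci with no named function, LOC_Os01g53730 and LOC_Os03g04100. REVEILLE 1, a morning-phased MYB factor related to the circadian clock, was at 173, 129 and 170.0 CPM at 0 h and 14.6, 33.4 and 28.8 CPM at 96 h (log2 fold change -2.62 ± 0.40 (SE), adjusted p = 0.000355). Both groups were sampled at the same time of day. Of 12 tested circadian clock loci, a list to which REVEILLE 1 does not belong, 0 passed the test (median 0.36). At 72 h, 8 had risen and 1 had fallen, against 23.9% and 24.9% of all loci. The groups of 7 of the 12 were still separate at 96 h, as were those of 26.7% of all loci. With DESeq2 2 of the 12 rose, where 576 of the 22961 loci did. In DC90 3 of the 12 rose, against 1.6% of all loci.

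Light-harvesting and Rubisco genes that were strongly lowered at 72 h no longer passed the test at 96 h. At 72 h, 12 of 13 light-harvesting chlorophyll proteins and all 4 Rubisco loci had fallen, against 24.9% of all loci, with medians of -4.12 and -4.15. From 72 h to 96 h, 12 of 13 light-harvesting proteins and all 4 Rubisco loci rose, against 26.4% of all loci. At 96 h against 0 h, 0 of the 13 and 0 of the 4 passed the test, and their medians were 0.38 and -0.43. A p above the threshold does not show that the levels were equal. At 84 h, after 12 h of recovery and out of phase with 0 h, the median of the light-harvesting proteins was still -4.72, and their summed level was 1187 to 1907 CPM in the 2 libraries of 9311 at that time.

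Some genes of photoprotection were lower than before chilling. The early light-inducible protein LOC_Os01g14410, a chlorophyll-binding protein of light stress, was at 47.6, 34.8 and 44.6 CPM at 0 h and 2.56, 3.93 and 5.05 CPM at 96 h (log2 fold change -3.46 ± 0.44 (SE), adjusted p = 7.95e-05). A locus of the photosystem II 22 kDa protein PsbS (LOC_Os04g59440), which is needed for the rapid dissipation of excess light, was at 45.9, 42.2 and 51.4 CPM at 0 h and 8.45, 7.06 and 8.09 CPM at 96 h (log2 fold change -2.56 ± 0.46 (SE), adjusted p = 0.00215). Both had separate groups and passed the test under all 15 alternatives. The median log2 fold change of the 69 tested photosystem loci was -0.60, with 45 below 0 and 24 above. This PsbS locus was 1 of the 3 of them that fell and passed the test, against 1.66% of all loci. The other 2 were annotated as photosystem II protein D1, a plastid-encoded protein, and are near-identical to it by annotation, so their counts are uncertain. LOC_Os04g16770 was at 36, 43.4 and 272 CPM at 0 h and 2.3, 17.9 and 5.58 CPM at 96 h, and LOC_Os10g21192 at 18.1, 24.9 and 156 CPM at 0 h and 2.36, 9.1 and 2.75 CPM at 96 h. Both were highest in 0 h replicate 3 and lost their calls without it. The number called in this list was 1 without 0 h replicate 3, 96 h replicate 1 or 96 h replicate 3, and 2 without 96 h replicate 2.

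Chlorophyll synthesis, a list chosen after values were seen, had 18 tested loci. At 72 h 16 of them had fallen, and 16 rose between 72 h and 96 h, against 24.9% and 26.4% of all loci. Against 0 h, 2 rose and 1 fell at 96 h, where 0.971% and 1.66% of all loci did. The fall was at LOC_Os02g04510, annotated as divinyl chlorophyllide a 8-vinyl-reductase, at 536, 567 and 675 CPM at 0 h and 10.3, 23.8 and 13.1 CPM at 96 h (log2 fold change -5.23 ± 0.82 (SE), adjusted p = 0.000531). Magnesium protoporphyrin IX methyltransferase (LOC_Os06g04150) rose, from 92.1, 126 and 99.3 CPM to 183, 282 and 305 CPM (log2 fold change 1.28 ± 0.28 (SE), adjusted p = 0.0109). It lost its call without 0 h replicate 1, 0 h replicate 3 or 96 h replicate 3. Protochlorophyllide reductase A (LOC_Os04g58200) was at 88.1, 63.1 and 44.2 CPM at 0 h and 3413, 232 and 359 CPM at 96 h, and 96 h replicate 1 was 9.5 times the next library. It lost its call without that library and without any 1 of the 0 h libraries, with an adjusted p of up to 0.264.

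Plastid-type ribosomal proteins had 135 tested loci, of which 6 rose and 0 fell, against 0.971% of all loci that rose, while the median was 0.03, and of 215 cytosolic ribosomal proteins 0 passed the test (median -0.13). The 50S protein L12 locus LOC_Os05g49320 was at 28.1, 24.1 and 23.8 CPM at 0 h and 41.5, 114 and 129 CPM at 96 h (log2 fold change 1.91 ± 0.33 (SE), adjusted p = 0.00166). Its 96 h replicate 1, the library lowest in leaf markers, was also the lowest of its group. The L12 locus LOC_Os01g47330 was at 109, 110.3 and 100.5 CPM at 0 h and 167, 384 and 419 CPM at 96 h (log2 fold change 1.60 ± 0.35 (SE), adjusted p = 0.0116). The number that rose was 3, 4 and 1 without each 0 h library in turn, 7, 2 and 1 without each 96 h library, and 0 in the fit of the 6 libraries.

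**Figure D3:**
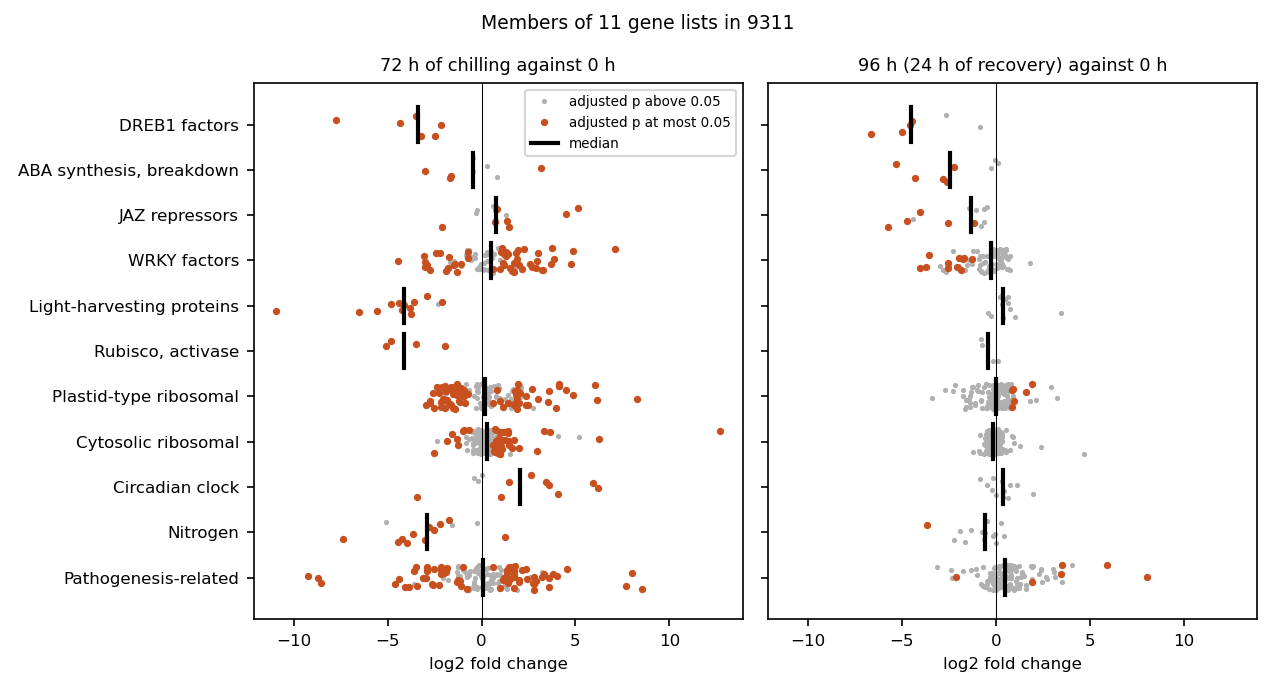
Log2 fold change against 0 h of the members of 11 gene lists in 9311 after 72 h of chilling (left) and at 96 h (right). Each point is a locus, orange where its adjusted p is at most 0.05, and black bars are medians; the medians of the light-harvesting proteins are -4.12 at 72 h and 0.38 at 96 h, and those of the DREB1 factors -3.36 and -4.53. The 2 comparisons share the 0 h libraries.

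The 9 DEGs that rose had no common annotation. Annexin D2 (LOC_Os09g20330), a calcium-dependent membrane-binding protein, rose most. It was at 0.145, 0.257 and 0.0837 CPM at 0 h and 17.9, 33.2 and 23 CPM at 96 h (log2 fold change 7.21 ± 0.94 (SE), adjusted p = 7.95e-05). CRK6 (LOC_Os04g56430), a cysteine-rich receptor-like kinase, was at 1.28, 2.05 and 2.93 CPM at 0 h and 55.4, 15.5 and 84.5 CPM at 96 h (log2 fold change 4.63 ± 0.66 (SE), adjusted p = 0.000198). The highest 96 h library of CRK6 was 5.44 times the lowest, and the lowest was still above each 0 h library. Thiamine thiazole synthase 2 (LOC_Os07g34570), which makes the thiazole part of vitamin B1, was at 6.83, 7.86 and 5.22 CPM at 0 h and 57.1, 38.6 and 39.9 CPM at 96 h (log2 fold change 2.77 ± 0.30 (SE), adjusted p = 1.54e-05). Triacylglycerol lipase 2 (LOC_Os08g41780) was at 6.08, 7.63 and 6.05 CPM at 0 h and 26.1, 69.3 and 52.6 CPM at 96 h (log2 fold change 2.90 ± 0.45 (SE), adjusted p = 0.000521). The endo-1,3;1,4-beta-D-glucanase LOC_Os05g35470, an enzyme of the type that cuts mixed-linkage glucan of grass cell walls, was at 14.3, 15.3 and 26.8 CPM at 0 h and 81.3, 166 and 140.0 CPM at 96 h (log2 fold change 2.78 ± 0.47 (SE), adjusted p = 0.000925). In the lipase and the glucanase, 96 h replicate 1 was the lowest of its group and was still above the 0 h libraries. The other 4, LOC_Os02g06560, LOC_Os05g05040, LOC_Os06g36390 and LOC_Os09g32360, have no named function in the deposited annotation, and their log2 fold changes were 3.01, 2.40, 2.74 and 2.46. LOC_Os09g32360 was at 0.217, 0.21 and 0.195 CPM at 0 h and 0.565, 1.3 and 1.6 CPM at 96 h, and it did not pass the test in the fit of the 6 libraries (edgeR adjusted p = 0.0604) or in limma on log2(FPKM + 1) (adjusted p = 0.238).

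Below the DEG thresholds, some defence and sugar genes were raised. Of 138 tested pathogenesis-related loci, 5 rose and 1 fell, against 0.971% and 1.66% of all loci, and the median was 0.50. The thaumatin-like protein LOC_Os12g43390 was at 0.507, 0.117 and 0.558 CPM at 0 h and 9.74, 16.4 and 45.8 CPM at 96 h (log2 fold change 5.92 ± 1.23 (SE), adjusted p = 0.00978). The Bowman-Birk trypsin inhibitor LOC_Os01g03380 had no reads in any 0 h library and was at 0.766, 0.206 and 1.34 CPM at 96 h, at least 10.2-fold higher than a floor of 3 counts per library (adjusted p = 0.0156). A second inhibitor of this kind, LOC_Os01g03390, was at 47.7, 29.4 and 33.5 CPM at 0 h and 118, 89.4 and 207 CPM at 96 h (log2 fold change 1.91 ± 0.43 (SE), adjusted p = 0.0143). At these 3 loci 96 h replicate 3 was the highest library. The number of rises in this list varied with the library left out, with 2, 0 and 1 without each 0 h library in turn and 5, 4 and 0 without each 96 h library. Of 9 tested loci of galactinol and raffinose synthesis, which make protective oligosaccharides, 2 rose and 0 fell, against 0.971% and 1.66% of all loci. The list as a whole was not raised: its median log2 fold change was 0.02, with 5 members above 0 and 4 below. The lowest, LOC_Os01g07530, was at -1.53 and did not pass the test. The galactosyltransferase LOC_Os07g10840 was at 67.5, 123 and 95.2 CPM at 0 h and 297, 589 and 534 CPM at 96 h (log2 fold change 2.32 ± 0.43 (SE), adjusted p = 0.00287) and passed the test under all 15 alternatives. The second, LOC_Os03g59430, was at 9.92, 12.3 and 12.3 CPM at 0 h and 25.8, 50.4 and 64 CPM at 96 h (log2 fold change 2.02 ± 0.48 (SE), adjusted p = 0.0195) and lost its call without any 1 of the 0 h libraries and without 96 h replicate 2 or 3.

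The paths by which these loci reached their level at 96 h differed, as the plot of 8 loci over the 6 timepoints shows. The timepoints share the 0 h libraries, and the values are given side by side. ORR6 was already at 16.2 to 21.2 CPM after 12 h of chilling and at 36 to 48.3 CPM at 72 h. The divinyl reductase locus was at 3.18 to 40.7 CPM at 72 h and 3.92 to 7.24 CPM at 84 h. ABA 8'-hydroxylase 1 was at 135 to 1197 CPM at 12 h, 29.3 to 58 CPM at 72 h and 13.6 to 27.7 CPM at 84 h. These loci were thus low before recovery began. TIFY 11d, in contrast, was at 133 to 308 CPM at 72 h, above each 0 h library, and at 12.9 to 32.6 CPM at 84 h. WRKY71 was at 216 to 455 CPM at 72 h, a range that overlapped 0 h, and at 46.5 to 70.6 CPM at 84 h. NCED5 had a log2 fold change of 3.18 at 72 h, -0.05 at 84 h and -2.23 at 96 h. Among the loci that rose, thiamine thiazole synthase 2 was at 1763 to 3665 CPM at 24 h and 349 to 457 CPM at 84 h, against at most 57.1 CPM at 96 h, so that it was far below its level in chilling and still above 0 h. Annexin D2 was at 9.11 to 92.6 CPM at 72 h and 8.14 to 18.7 CPM at 84 h, and its 96 h values lay within the range of 72 h. Over the 45 DEGs that fell, the median log2 fold change against 0 h was -0.25, -1.33 and -1.31 after 12, 24 and 72 h of chilling, -2.85 after 12 h of recovery (84 h) and -3.46 after 24 h of it. Over the 9 that rose it was 1.95, 2.61, 3.56, 4.08 and 2.78 at the same times. Among the 381 loci that fell and passed the test, the median was 0.05, -0.23 and -0.29 in chilling, -1.51 at 84 h and -1.99 at 96 h. For the 223 that rose, it was 0.49, 0.58, 0.50, 1.32 and 1.68 at the same times. The 96 h medians are fixed in sign by the choice of the loci.

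**Figure D4:**
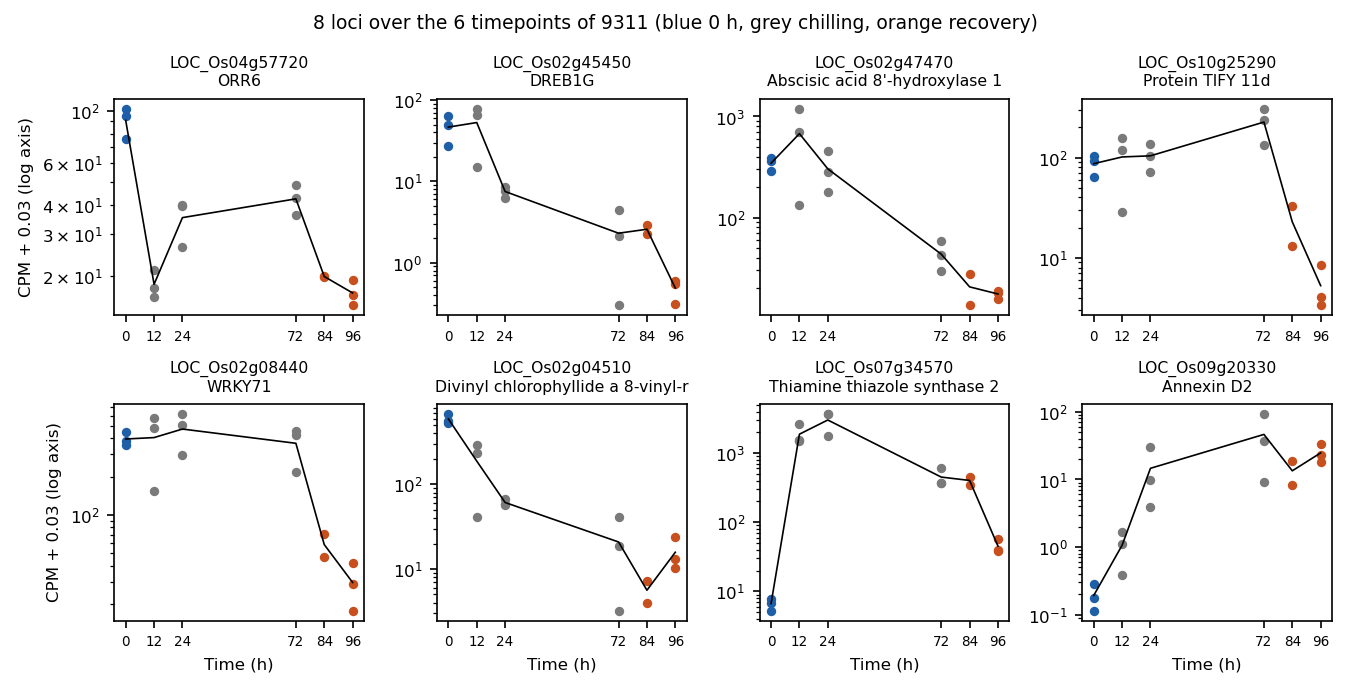
CPM plus 0.03 (log axis, a separate scale in each panel) of 8 loci in the libraries of 9311 against time in hours. Points are libraries (blue 0 h, grey chilling, orange recovery, 3 per timepoint and 2 at 84 h) and lines join the means. ORR6 and the divinyl reductase locus are below 0 h from 12 h on, TIFY 11d and WRKY71 fall after 72 h, and annexin D2 stays high. The 12 h and 84 h samples are out of phase with 0 h in time of day.

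Many other lists had few or no members that passed the test, where 0.971% of all loci rose and 1.66% fell. Of 14 tested loci of nitrogen uptake and assimilation 1 fell, the nitrate reductase LOC_Os02g53130. It was at 13.5, 98.8 and 28.3 CPM at 0 h and 3.85, 2.96 and 4.25 CPM at 96 h (log2 fold change -3.67 ± 0.87 (SE), adjusted p = 0.0192). Its 0 h replicate 2 stood far above the other two, and the call was lost without that library or any 1 of the 96 h libraries. Of 52 expansins and xyloglucan enzymes, which loosen cell walls, 2 fell and 0 rose. The xyloglucan endotransglucosylase/hydrolase LOC_Os04g51460 was at 22.4, 27.1 and 27.5 CPM at 0 h and 2.96, 2.71 and 5.27 CPM at 96 h (log2 fold change -2.81 ± 0.55 (SE), adjusted p = 0.00444). Of 32 heat shock proteins 1 rose and 1 fell, and of 73 auxin-responsive loci 1 rose and 3 fell. Among class III peroxidases 1 of 92 rose, among lipid transfer proteins and thionins 2 of 109 rose, among starch enzymes 2 of 34 fell, and among phosphate starvation genes 1 of 37 rose and 1 fell. Of 66 glutathione S-transferases 1 fell, and of 25 tryptophan and serotonin loci 1 fell. In 6 of these lists the counts did not hold when 1 library was left out. The glutathione S-transferase and tryptophan lists had 0 whichever library that was. Without 0 h replicate 3, 0 loci passed in the auxin, peroxidase, lipid transfer protein, starch, glutathione S-transferase and tryptophan lists, and leaving out any other library left 0 to 2 in each of them. None passed among 18 dehydrins and LEA proteins, 40 phenylpropanoid and flavonoid loci, 11 terpenoid phytoalexin loci, 50 core histones, 125 cyclins and kinesins, 19 cellulose synthases, 30 aquaporins, 7 iron uptake loci, 5 chlorophyll breakdown loci and 2 flowering regulators. At 72 h, 27 of the 50 histones and 54 of the 125 cyclins and kinesins had fallen, against 24.9% of all loci. Between 72 h and 96 h, 28 and 53 rose, against 26.4% of all loci. Over all 36 lists, 60 of 1567 distinct loci passed the test (3.83%), 19 up and 41 down, against 2.63% of all loci tested. The lists were chosen with earlier results of these data known and include the loci named in the study. The comparison of these shares is therefore not independent evidence.

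Of 27 loci that the study discusses by name, a list chosen by its authors on these samples and for that reason not independent evidence, 3 fell and 0 rose at 96 h: ABA 8'-hydroxylase 1, NCED3 and NCED5. At 72 h, 14 of the 27 had risen and 10 had fallen, against 23.9% and 24.9% of all loci. Between 72 h and 96 h, 7 rose and 12 fell, against 26.4% and 27% of all loci. Galactinol-sucrose galactosyltransferase LOC_Os01g07530 was at 132, 113 and 131 CPM at 0 h and 27.5, 45.6 and 57.3 CPM at 96 h (log2 fold change -1.53), and its adjusted p was 0.0656, just above the threshold. The chloroplastic glutamine synthetase LOC_Os04g56400 was at 603, 1185 and 1198 CPM at 0 h and 573, 1100.4 and 976 CPM at 96 h, with overlapping groups. The phenylalanine ammonia-lyase LOC_Os04g43760, which starts phenylpropanoid synthesis, was at 88.5, 88.2 and 108 CPM at 0 h and 112, 0.0158 and 92.5 CPM at 96 h, so that 96 h replicate 2 had almost no reads at a locus where the other libraries had many.

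DC90 went through the same treatment and has its own 0 h libraries. There, 368 loci rose (1.6%) and 1089 fell (4.74%) between 0 h and 96 h. The list medians side by side were -4.53 in 9311 and -6.26 in DC90 for the DREB1 factors, -1.32 and -1.95 for the JAZ repressors, and -2.41 and -1.88 for ABA synthesis and breakdown. In the nitrogen list 1 locus of 14 fell in 9311 and 8 fell in DC90, and in the WRKY list 11 and 27 of 87 fell. The summed level of the root markers was 56.3, 57.9 and 1090.5 CPM at 0 h and 65.8, 99.9 and 54.2 CPM at 96 h in DC90, so that 0 h replicate 3 stood apart. In DC90 3 of the 5 tested root markers fell (median -6.53) against 0 in 9311 (median -0.08). In a fit without that DC90 library, chosen after seeing the data, 279 loci rose and 919 fell in DC90, 0 of the 5 root markers passed the test, and the nitrogen list had 4 falls in place of 8, with its median at -1.19 in place of -2.67. The DREB1, JAZ and ABA lists had 6, 7 and 4 falls with or without it, and the WRKY list had 24 without it. A locus called in a single line is not thereby shown to differ, and the difference in change between the lines was tested directly. It passed at 3 loci (0.0131%), 2 with a higher and 1 with a lower value in 9311, while 2106 loci had an unadjusted p under 0.05.

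Annexin D2 was at 0.539, 0.706 and 0.565 CPM at 0 h and 1.03, 0.262 and 0.414 CPM at 96 h in DC90, where the groups overlapped, whereas it rose in 9311. The difference in log2 fold change, 9311 minus DC90, was 7.30 ± 1.16 (SE), adjusted p = 0.0131. LOC_Os07g11000, annotated as subunit 33A of the Mediator complex that links activators to RNA polymerase II, was at 78, 67.6 and 68.4 CPM at 0 h and 22.5, 22.4 and 20.8 CPM at 96 h in 9311 and at 16.5, 13.2 and 26.6 CPM at 0 h and 68.6, 102 and 67.6 CPM at 96 h in DC90. It fell in 9311 and was higher at 96 h in each DC90 library, with a difference of -3.78 ± 0.45 (SE), adjusted p = 0.000155. The stem 28 kDa glycoprotein locus LOC_Os01g09540 was at 72.7, 109 and 107 CPM at 0 h and 299, 439.6 and 275 CPM at 96 h in 9311 and at 275, 171 and 209.6 CPM at 0 h and 133, 156 and 139.8 CPM at 96 h in DC90. Its difference was 2.43 ± 0.41 (SE), adjusted p = 0.02. Without a single library of 9311 the number of loci that passed was between 1 and 8, with 1 without 0 h replicate 1 or 3 and 8 without 96 h replicate 1. Without DC90 0 h replicate 3 it was 12, 8 with a higher and 4 with a lower value in 9311. The Mediator locus passed whichever of these libraries was left out. Annexin D2 did not pass without 9311 0 h replicate 1 or 3 (adjusted p = 0.113 and 0.0812), and the stem glycoprotein locus did not pass without these or without 96 h replicate 2 (adjusted p = 0.122, 0.0812 and 0.131). In limma on log2(FPKM + 1) the adjusted p was 0.053 for annexin D2 and 0.0506 for the stem glycoprotein locus. With DESeq2 the number was 219, 178 with a higher and 41 with a lower value in 9311.

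**Figure D5:**
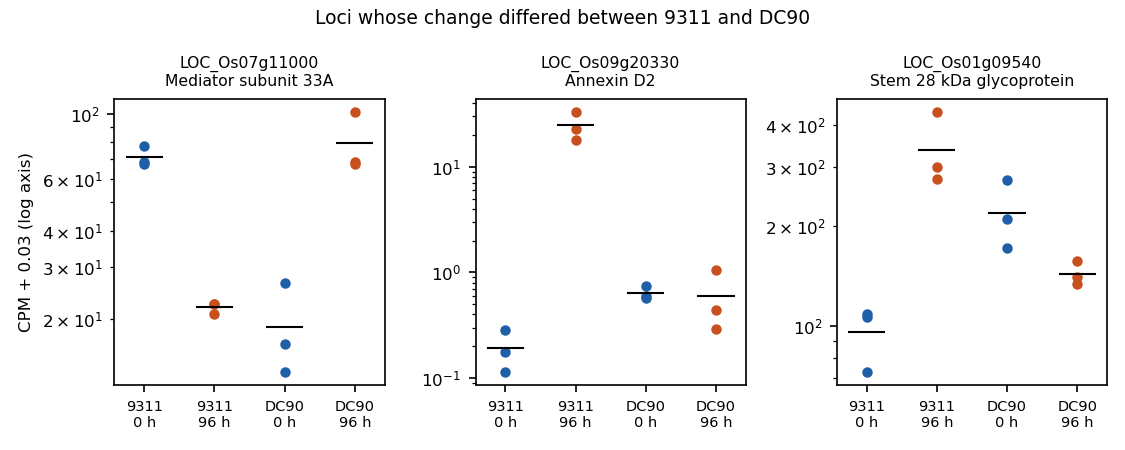
CPM plus 0.03 (log axis, a separate scale in each panel) of the 3 loci whose change from 0 h to 96 h differed between 9311 and DC90, in the 3 libraries of each group (points) with the mean (bar). Annexin D2 is higher at 96 h in 9311 while its groups overlap in DC90, and the Mediator subunit 33A locus falls in 9311 and is higher at 96 h in DC90.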

How the data were processed

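RNA-Seq libraries were made from whole plants of 2 rice lines at 6 timepoints, and 35 libraries are used here. The authors deposited 1 table with a read count and an FPKM value (fragments scaled to transcript length and library size) per locus and library, 57778 loci in all. Per the study's methods reads were aligned with HISAT2 to rice annotation release 7, while the submitters' processing notes name Bowtie 0.12.2 and the build mm8, a mouse build. The counting tool, and its treatment of reads shared by near-identical copies, are not given in the sources used here.

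The deposited counts were fitted in edgeR 4.0.16 (R 4.3.3) with TMM scaling and the quasi-likelihood test, with 12 groups of line and time in 1 model. Loci with a mean deposited FPKM of at least 0.5 over the 35 libraries were tested (22961). Standard errors are the log2 fold change divided by the square root of F. The 6 libraries compared held 36817765 to 63722796 counts. The p-values set each difference against the spread between whole-plant samples within the 12 groups. That spread was estimated over all 35 libraries, not only the 6 compared.

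The loci named are the 15 DEGs with the largest rise and fall whose groups do not overlap, up to 4 members with the smallest p in each of 36 lists, members of lists of fixed loci, loci that the study names and the loci that differ between the lines. All other DEGs, the members of 10 further lists and the loci of the closing section were named after their values were seen. Members and lists were chosen with earlier results of these data known. One root marker of the list was left out because the deposited annotation does not name it. The alternatives were fits of fewer libraries, DESeq2 1.42.0, its size factors, limma 3.58.1 on log2(FPKM + 1) and log2(FPKM + 0.1), other filters, other thresholds, a replicate block and leaving out each library. Scripts were tested on simulated counts. No annotation with these locus identifiers was used here, so no sequences or coordinates are given.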

Additional observations from a re-analysis of the deposited data

Results flagged for a closer look

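The change from 0 h to 96 h differed between 9311 and DC90 at 3 loci in the direct test of that difference (edgeR quasi-likelihood test, adjusted p of at most 0.05). Annexin D2 (LOC_Os09g20330) differed by 7.30 on the log2 scale, with a rise in 9311 in 3 of 3 libraries and overlapping groups in DC90. The Mediator subunit 33A locus (LOC_Os07g11000) differed by -3.78, and its groups were separate in both lines, lower at 96 h in 9311 and higher at 96 h in DC90. The stem 28 kDa glycoprotein locus (LOC_Os01g09540) differed by 2.43, higher at 96 h in each 9311 library and lower at 96 h in each DC90 library. The difference at the Mediator locus passed the test under each alternative run, with an adjusted p between 1.13e-12 and 0.00167. That at annexin D2 was lost without 9311 0 h replicate 1 (adjusted p = 0.113) or 3 (0.0812) and in limma on log2(FPKM + 1) (0.053). That at the stem glycoprotein locus was lost without 9311 0 h replicate 1 (0.122), 0 h replicate 3 (0.0812) or 96 h replicate 2 (0.131), and in limma at a pseudocount of 1 (0.0506) and 0.1 (0.113).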

How the results depend on the processing

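The number of DEGs, 54 with the settings of the report, was 1 in the fit of only the 6 libraries, 1 in that of the 17 libraries of 9311, 217 with DESeq2, 84 and 88 with limma at a pseudocount of 1 and 0.1, and 528 when the thresholds were relaxed to 1 for the log2 fold change and 0.05 for the adjusted p. The loci that passed the test, 604, became 182 in the fit of the 17 libraries, 1214 with DESeq2 and 919 with limma at a pseudocount of 1. Members of the 36 lists, 60, became 23 and 130 in the first 2 of these. The loci that differed between the lines, 3, became 219 with DESeq2, 5 with limma at a pseudocount of 1 and 5 with no filter. Leaving out 1 library of 9311 gave 4 to 27 DEGs, 246 to 327 loci that passed, 27 to 38 list members and 1 to 8 loci that differed between the lines. Leaving out DC90 0 h replicate 3, chosen after seeing the data, gave 60, 645, 63 and 12. The libraries behind the lowest and highest values are named in the report. The cause of these shifts was not tested beyond the smaller number of libraries in those fits. Over all loci, same-numbered replicates of 9311 at 0 h and 96 h did not deviate together (correlations of -0.14, -0.05 and -0.05). Whether they shared a batch that moved some of the loci was not tested. With a replicate block the counts were 48, 551, 54 and 3. The direction of all 54 DEGs was kept under the 15 alternatives. The split did not hold throughout, with more DEGs up than down without 96 h replicate 1 (9 and 2) or 2 (3 and 1) and more list members up than down with DESeq2 (69 and 61). At 3 counts or fewer per library a level could not be told from 0.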

Other observations

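Further loci that passed the test (edgeR quasi-likelihood test, adjusted p of at most 0.05) without reaching the DEG thresholds were looked up after their values had been seen. Several encode proteins of the defence type. The thaumatin-like protein LOC_Os12g43490 was at 2.12, 1.96 and 3.24 CPM at 0 h and 19.2, 16.4 and 45.3 CPM at 96 h (log2 fold change 3.47 ± 0.80 (SE), adjusted p = 0.0165). Zeamatin (LOC_Os03g46070) was at 2, 1 and 2.87 CPM at 0 h and 12.8, 10.4 and 28.5 CPM at 96 h, and its neighbour in number, protein P21 (LOC_Os03g46060), was at 3.26, 3.31 and 3.77 CPM at 0 h and 28.2, 14 and 50.8 CPM at 96 h. A locus annotated as barwin (LOC_Os11g37950) was at 2.39, 3.52 and 7.95 CPM at 0 h and 27.5, 16.8 and 57.9 CPM at 96 h, and pathogenesis-related protein 1 (LOC_Os01g28450) at 0.507, 2.38 and 0.753 CPM at 0 h and 9.3, 11.7 and 20.5 CPM at 96 h. In each of these 5, 96 h replicate 3 was the highest library and no 0 h library reached the 96 h range. With 1 library left out, the call at LOC_Os01g28450 was lost in all 6 fits, that at LOC_Os11g37950 in 5 (all but the one without 96 h replicate 2), those at LOC_Os12g43490 and LOC_Os03g46060 without any 1 of the 0 h libraries or 96 h replicate 3, and that at LOC_Os03g46070 without 0 h replicate 1 or 2 or 96 h replicate 3. Transcription factor MYB20 (LOC_Os08g33150) was at 1.5, 1.17 and 3.35 CPM at 0 h and 12.3, 16.6 and 18.5 CPM at 96 h (log2 fold change 2.98 ± 0.58 (SE), adjusted p = 0.00478). The amino acid transporter AVT1J (LOC_Os01g41420) fell, from 10.7, 25.7 and 40.9 CPM to 0.524, 0.396 and 0.668 CPM (log2 fold change -5.60 ± 0.96 (SE), adjusted p = 0.0013). MYB20 and AVT1J kept their calls in all 6 fits.

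Some risen loci carry neighbouring numbers. LOC_Os05g05040 is a DEG, and LOC_Os05g05070 (0.0483, 0.0233 and 0.251 CPM at 0 h and 0.807, 1.06 and 1.21 CPM at 96 h) and LOC_Os05g05100 (0.0724, 0.0466 and 0.446 CPM at 0 h and 1.07, 2.12 and 1.8 CPM at 96 h) rose as well. LOC_Os06g39110 was at 5.82, 3.41 and 5.3 CPM at 0 h and 26.5, 51.6 and 38.9 CPM at 96 h and LOC_Os06g39120 at 19.4, 13.4 and 18 CPM at 0 h and 75.4, 156 and 138 CPM at 96 h. The calls at LOC_Os05g05070 and LOC_Os05g05100 were lost in the fits of 6 and of 17 libraries and with 1 library left out, other than 0 h replicate 3. LOC_Os06g39120 lost its call without 0 h replicate 2, and LOC_Os05g05040 and LOC_Os06g39110 kept theirs under all 15 alternatives. None of these has a function named in the deposited annotation that is known in plants.

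In other loci the 96 h libraries differed widely. The locus newGene_823, annotated only as a hypothetical protein, was at 0.0241, 1.98 and 0 CPM at 0 h and 9.24, 619 and 1127 CPM at 96 h (adjusted p = 0.0215), and its call was lost without 0 h replicate 1 or 3 or 96 h replicate 3. Isocitrate lyase (LOC_Os07g34520), an enzyme of the glyoxylate cycle, was at 0.821, 0.723 and 1 CPM at 0 h and 25.1, 2.41 and 8.55 CPM at 96 h (log2 fold change 3.82 ± 0.85 (SE), adjusted p = 0.0125), and 96 h replicate 1 was the highest library, as it was for protochlorophyllide reductase A. Its call was lost without that library and without any 1 of the 0 h libraries.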
